A study of Mus musculus with 12 samples.

Results

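Brain-derived neurotrophic factor (Bdnf), neurotrophin 3 (Ntf3), glial cell line-derived neurotrophic factor (Gdnf), fibroblast growth factor 2 (Fgf2), hepatocyte growth factor (Hgf), pleiotrophin (Ptn) and midkine (Mdk) are 7 secreted growth factors that act on neurons or glia. Their transcripts were followed in mouse astrocytes cultured on brain sections. The genes were chosen by name, with earlier results of these data known, and all probe sets that the array annotation pairs with one of them alone were used. This gave 11 probe sets of 6 genes, out of 45037 probe sets and 18193 genes tested. Ntf3 had no such probe set in the annotation used and was not analysed here. The value of a gene is the mean of its probe sets.

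Neurotrophins such as Bdnf signal through Trk receptor kinases and the p75 receptor (Ngfr), and Gdnf binds the co-receptor Gfra1 and signals through the kinase Ret or through the adhesion molecule Ncam1. Fgf2 acts through the FGF receptors and Hgf through the kinase Met, while pleiotrophin and midkine are related heparin-binding proteins that bind the receptor phosphatase Ptprz1, syndecans and the kinase Alk. Astrocytes are known as a source of several of these factors and carry some of their receptors.

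All cells were cortical and hippocampal astrocyte cultures of the C57Bl/6j strain that carried green fluorescent protein (eGFP), shaken before use to remove microglia. The adult cultures came from mice aged 6 to 8 weeks. For the neonatal cultures the age label is 3 d, whereas the culture protocol names mice of 2 days. Each culture was placed on a brain section for 22 h. The section came from an APdE9 mouse or from a wild-type littermate. APdE9 mice express APPSwe, a mouse-human hybrid of the amyloid precursor protein with the Swedish mutation, and PS1-dE9, a mutant presenilin, both from a mouse prion promoter. The labels name no APdE9 transgene for the cells laid on top, so "on APdE9" below names the section and not the genotype of the astrocytes. Cells were loosened with trypsin, the green ones were picked by suction, and their purity was checked by flow cytometry per the labels. The adult cultures went through Percoll and were fed DMEM/F12 plus the G5 supplement. The neonatal cultures were fed DMEM and had neither. G5 is a serum-free supplement known to hold basic FGF and EGF proteins, so age, medium and isolation cannot be told apart in any comparison of adult with neonatal cells.

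There were 3 arrays in each of the 4 groups (neonatal on wild-type, neonatal on APdE9, adult on wild-type, adult on APdE9), each with RNA of samples pooled before isolation (n = 3). The labels call them biological replicates without saying what was pooled, so p-values measure only the spread from pool to pool, part of which may be technical. Every value is a signal as the authors computed it, relative to the median of its probe set across the 12 arrays. It was read as log2, although the log base is not stated, and the fold changes below rest on that reading. Groups can therefore be compared for a gene, but no gene can be called present or absent and levels of different genes cannot be compared. The astrocyte label could for that reason be checked only between groups. Among 14 measured astrocyte markers, 11 were lower and 2 higher in adult than in neonatal cells on wild-type sections. The mean of the astrocyte list per array was 0.89 to 0.95 for neonatal cells on wild-type, 0.45 to 0.59 for neonatal cells on APdE9, -0.63 to -0.61 for adult cells on wild-type and -0.66 to -0.62 for adult cells on APdE9. Of 15 measured microglial markers (of 16 listed), 14 were lower and 1 higher in adult cells on wild-type, and the list's mean per array was 1.48 to 2.04, 2.02 to 2.16, -2.40 to -2.13 and -1.66 to -1.57 in the same order of groups. For 12 fibroblast and meningeal markers the means were -0.60 to 0.02, -0.54 to -0.17, 0.70 to 0.86 and 0.08 to 0.47. On APdE9 sections, 6 microglial markers rose and 1 fell in adult cells (median 0.37), and 2 rose in neonatal cells (median 0.48). Of the 14 astrocyte markers, 5 rose and 3 fell there in adult cells (median -0.10), and 0 rose and 6 fell in neonatal cells (median -0.34). Over all genes 17.7% passed the test given below between sections in adult cells and 3.76% in neonatal cells. Between adult and neonatal cells on wild-type sections 30.1% passed. These are lists of relative values, and the part of other cell types in the results below was not tested. In RNA from a whole pool, fewer cells that hold a transcript and less transcript per cell cannot be told apart. The correlation of arrays within a group lay between 0.515 and 0.844 over probe sets.

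Promoter sequence was available from RefSeq (build GRCm38.p6) for 5 of the 6 measured genes, in 13 windows of 250 bases that end at an annotated transcript start. Mdk had none in the table used. The windows below belong to the 3 genes that differed between sections in adult cells and had a window. For Bdnf, which has 7 windows, the one that holds a cyclic AMP response element half-site is shown, since that gene is known to be driven by this element. The sequences are 5′ to 3′ on the strand of the gene, and capitals mark a match to a motif searched. The motifs, on both strands, were the half-site TGACG (or CGTCA), the GC box GGGCGG (or CCGCCC) and the TATA box TATAAA (or TTTATA).
Bdnf, chr2:109692186-109692435 (+): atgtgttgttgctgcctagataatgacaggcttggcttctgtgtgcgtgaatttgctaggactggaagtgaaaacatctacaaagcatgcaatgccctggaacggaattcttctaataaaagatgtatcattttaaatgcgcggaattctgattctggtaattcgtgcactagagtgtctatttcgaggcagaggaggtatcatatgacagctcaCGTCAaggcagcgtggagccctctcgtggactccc
Hgf, chr5:16553245-16553494 (+): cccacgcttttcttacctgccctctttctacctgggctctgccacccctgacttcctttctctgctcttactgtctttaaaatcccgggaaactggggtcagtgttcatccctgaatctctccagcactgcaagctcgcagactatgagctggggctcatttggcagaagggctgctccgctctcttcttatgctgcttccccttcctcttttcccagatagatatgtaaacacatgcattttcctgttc
Ptn, chr6:36810180-36810429 (-): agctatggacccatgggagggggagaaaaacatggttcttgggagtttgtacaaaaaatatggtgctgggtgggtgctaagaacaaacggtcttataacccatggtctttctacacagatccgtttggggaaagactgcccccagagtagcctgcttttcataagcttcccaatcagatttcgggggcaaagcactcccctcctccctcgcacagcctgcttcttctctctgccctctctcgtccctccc
In the Bdnf window the half-site begins 35 bases before the start. Other Bdnf windows hold GC boxes, but none of them holds the half-site. Neither the Hgf nor the Ptn window shown holds any of the 3 motifs. Fgf2 and Gdnf, which did not differ between sections past the threshold, carry motifs too. The Fgf2 window holds 2 half-sites and 1 GC box, and a Gdnf window holds 1 half-site and 1 TATA box. A link of these motifs to the section was not tested. Of 32851 promoter windows of the same length, 17.8% hold the half-site, 32.7% the GC box and 12.4% the TATA box. These shares are for single windows, whereas the Bdnf window was picked from 7 for its half-site. The GC content of the windows is 45.6% for Bdnf, 50.8% for Hgf and 52.0% for Ptn, beside a median of 52.4% over all windows. The arrays hold no measure of which start was used.

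On APdE9 sections, adult astrocytes had more Bdnf, Ptn and Mdk transcript and less Hgf transcript than on wild-type sections, while Gdnf and Fgf2 did not pass the test. In neonatal astrocytes none of the 6 genes passed it. Adult cells had more Bdnf and Hgf and less Ptn and Mdk than neonatal cells on either section. The section effects of Hgf and Ptn differed between adult and neonatal cells, and so did that of Mdk, though by a call that was lost when most single arrays were left out. After quantile normalization the Hgf difference still passed, but those of the Ptn and Mdk gene values did not. The Ptn gene value averages probe sets that did not agree, and the Ptn probe sets called for this difference stayed called. Every test was limma's moderated test on all 12 arrays with Benjamini-Hochberg adjustment over all 18193 genes (or 45037 probe sets), and a call is an adjusted p under 0.05. Replicate numbers entered only those fits that are said to have the number as a block.

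Counting members gave 4 of 6 genes called between sections in adult cells, 3 higher and 1 lower, and 5 had an unadjusted p under 0.05 by limma. Over all genes 17.7% were called in that comparison, 8.26% higher and 9.40% lower. In neonatal cells 0 of the 6 genes were called by limma, and 0 had an unadjusted p under 0.05, beside 3.76% of all genes called. Of the neonatal calls over all genes, 32.2% were higher on APdE9, and 42.7% after quantile normalization. The difference of the section effects was called for 3 of the 6 genes, beside 10.1% of all genes. Between adult and neonatal cells 4 of the 6 were called on wild-type sections and 4 on APdE9 sections, beside 30.1% and 23.5% of all genes. On each section 2 of them, Bdnf and Hgf, were higher in adult cells (14.9% and 11.7% of all genes) and 2, Ptn and Mdk, were lower (15.2% and 11.9%). Among the 11 probe sets, 7 were called between sections in adult cells (12.7% of all probe sets), 5 for the difference (6.73%), 8 for age on wild-type (22.9%) and 8 for age on APdE9 (16.4%). The order of groups below also uses the pairs across age and section, in which 28.2% (adult on wild-type against neonatal on APdE9) and 26.5% (adult on APdE9 against neonatal on wild-type) of all genes were called. These comparisons share groups of arrays, so their counts are not independent. The genes were chosen with earlier results of these data known, so the counts beside the shares of all genes are description only.

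**Figure D1:**
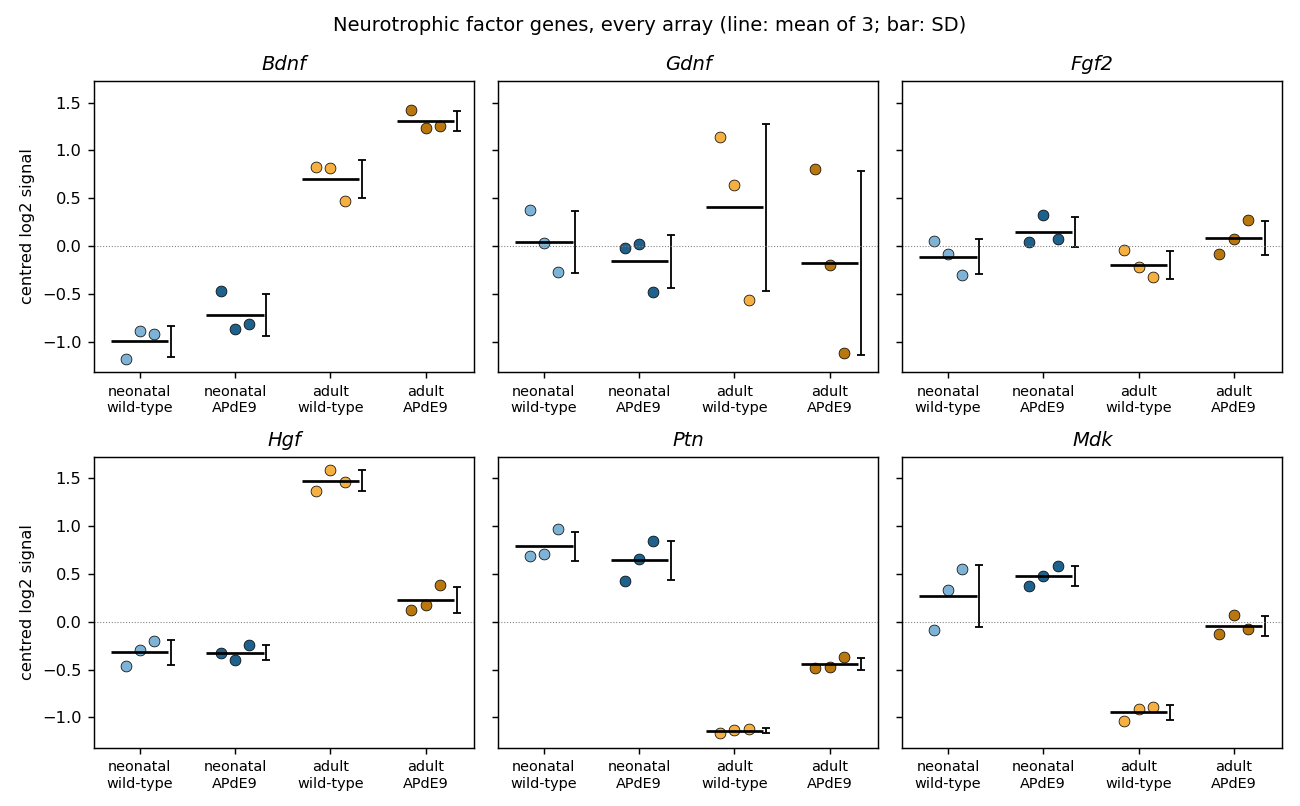
Log2 value of each of the 6 measured genes on each of the 12 arrays, with the median of each probe set over all arrays removed, by group of 3 arrays; points are arrays, horizontal lines are group means and bars the SD (n = 3). Hgf of adult cells on wild-type sections lay between 1.37 and 1.59, above every other array, and the 3 points of Gdnf in adult cells on either section were spread widely.

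Bdnf supports the survival and synapses of neurons through the TrkB receptor. The gene lies at chr2:109674700-109727043. Its log2 values in adult cells were 1.42, 1.24 and 1.25 on APdE9 and 0.82, 0.81 and 0.47 on wild-type sections. In neonatal cells they were -0.47, -0.87 and -0.82 on APdE9 and -1.18, -0.88 and -0.92 on wild-type sections. No groups overlapped, although the gap between the neonatal groups was narrow, from -0.88 to -0.87. Bdnf was thus 1.52-fold higher on APdE9 in adult cells (log2 difference 0.60 ± 0.13 SE, adjusted p = 0.00708). Its neonatal difference was 0.27 ± 0.13 (adjusted p = 0.371, 95% interval -0.01 to 0.56). The difference of these differences was 0.33 ± 0.19 and missed the threshold (adjusted p = 0.331, 95% interval -0.08 to 0.73), so the adult and neonatal effects were not shown to differ. Adult cells exceeded neonatal cells 3.24-fold on wild-type (1.70 ± 0.13, adjusted p = 7.5e-07) and 4.07-fold on APdE9 sections (2.02 ± 0.13, adjusted p = 2.08e-07). The order of the group means ran from adult on APdE9 through adult on wild-type to the neonatal groups, and only the neonatal groups, as neighbours, did not differ past the threshold.

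Bdnf was measured by a pair of probe sets that correlated at 0.99 over the 12 arrays. In adult cells 1422168_a_at rose by 0.83 ± 0.17 on APdE9 (adjusted p = 0.00584), whereas 1422169_a_at differed by 0.38 ± 0.12 without passing the test (adjusted p = 0.0707). The adult groups did not overlap in either probe set. The latter passed after quantile normalization (0.70, adjusted p = 0.00407) and with the replicate block (adjusted p = 0.0454), in a comparison where the numbers were not taken as pairs. The size of the gene's section effect moved with scaling, to 1.04 after quantile normalization (adjusted p = 0.000499). With only the arrays numbered 1 and 2 it was 0.51 and no longer passed (adjusted p = 0.0672).

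Gdnf, a survival factor for dopaminergic and motor neurons, lies at chr15:7810048-7837580. In adult cells its values were 0.80, -0.20 and -1.12 on APdE9 and 1.14, 0.63 and -0.56 on wild-type sections. In neonatal cells they were -0.02, 0.02 and -0.48 on APdE9 and 0.37, 0.03 and -0.28 on wild-type sections. All groups overlapped, and the array numbered 3 was the lowest of its group in all 4 groups. The SD in adult cells was 0.96 on APdE9 and 0.87 on wild-type, beside 0.28 and 0.33 in neonatal cells. No comparison passed: the section difference was -0.58 ± 0.46 in adult cells (adjusted p = 0.440, 95% interval -1.58 to 0.43) and -0.20 ± 0.46 in neonatal cells (adjusted p = 0.938, 95% interval -1.20 to 0.80). The age difference was 0.36 ± 0.46 on wild-type (adjusted p = 0.640) and -0.01 ± 0.46 on APdE9 (adjusted p = 0.987). For each array number Gdnf was lower on APdE9 than on wild-type sections at both ages, and these intervals take no account of the numbers. With the number as a block Gdnf passed no comparison either. Differences inside these wide intervals were not detectable in the fit without the block, and there no neighbours in the order of group means differed.

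Fgf2, or basic FGF, is a mitogen of glia and was measured by a single probe set. The gene lies at chr3:37348477-37410106, and its adult values were -0.08, 0.08 and 0.27 on APdE9 and -0.05, -0.22 and -0.33 on wild-type sections. The neonatal values were 0.05, 0.33 and 0.07 on APdE9 and 0.06, -0.08 and -0.30 on wild-type sections. Means were higher on APdE9 at both ages, but the groups overlapped at both. The section difference was 0.29 ± 0.13 in adult cells (adjusted p = 0.147) and 0.26 ± 0.13 in neonatal cells (adjusted p = 0.373), with 95% intervals of 0.01 to 0.56 and -0.01 to 0.53. Age gave -0.09 ± 0.13 on wild-type (adjusted p = 0.685) and -0.06 ± 0.13 on APdE9 (adjusted p = 0.780). The section effects differed by 0.03 ± 0.18 (adjusted p = 0.958), and no neighbours in the order of group means differed past the threshold.

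Hgf, the ligand of Met, is a factor of mesenchymal cells with neurotrophic effects. The gene lies at chr5:16553495-16619439. Its values in adult cells were 0.12, 0.18 and 0.39 on APdE9 and 1.37, 1.59 and 1.46 on wild-type sections. In neonatal cells they were -0.33, -0.40 and -0.24 on APdE9 and -0.46, -0.30 and -0.20 on wild-type sections. Adult cells on wild-type stood highest, adult cells on APdE9 were intermediate without overlap with any group, and the neonatal groups overlapped. Hgf was 2.37-fold lower on APdE9 in adult cells (log2 difference -1.24 ± 0.10, adjusted p = 4.47e-06) and differed by -0.0040 ± 0.10 in neonatal cells (adjusted p = 0.997, 95% interval -0.22 to 0.21). The section effects differed by -1.24 ± 0.14 (adjusted p = 0.000205). Adult cells exceeded neonatal cells 3.46-fold on wild-type (1.79 ± 0.10, adjusted p = 3.44e-08) but 1.47-fold on APdE9 (0.55 ± 0.10, adjusted p = 0.00125). All 3 probe sets gave the same picture, with log2 section differences in adult cells of -1.24, -1.46 and -1.03, each called, and correlations among them of 0.957 to 0.982. Beside this, 5 of 12 fibroblast and meningeal markers fell and 2 rose on APdE9 in adult cells, with a median of -0.65, and their mean per array was lower there than on wild-type sections. Of 10 mural and smooth muscle markers 3 fell on APdE9, the actin-binding proteins Tagln and Cnn1 (log2 differences -3.37 and -2.70) and the smooth muscle actin Acta2 (-1.38), and the list's median was -0.08. The mean of that list per array was -0.36 to -0.25 in adult cells on APdE9 and 0.42 to 0.51 on wild-type, and -0.07 to 0.02 and 0.04 to 0.25 in neonatal cells. The part of either list in the Hgf result was not tested.

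**Figure D2:**
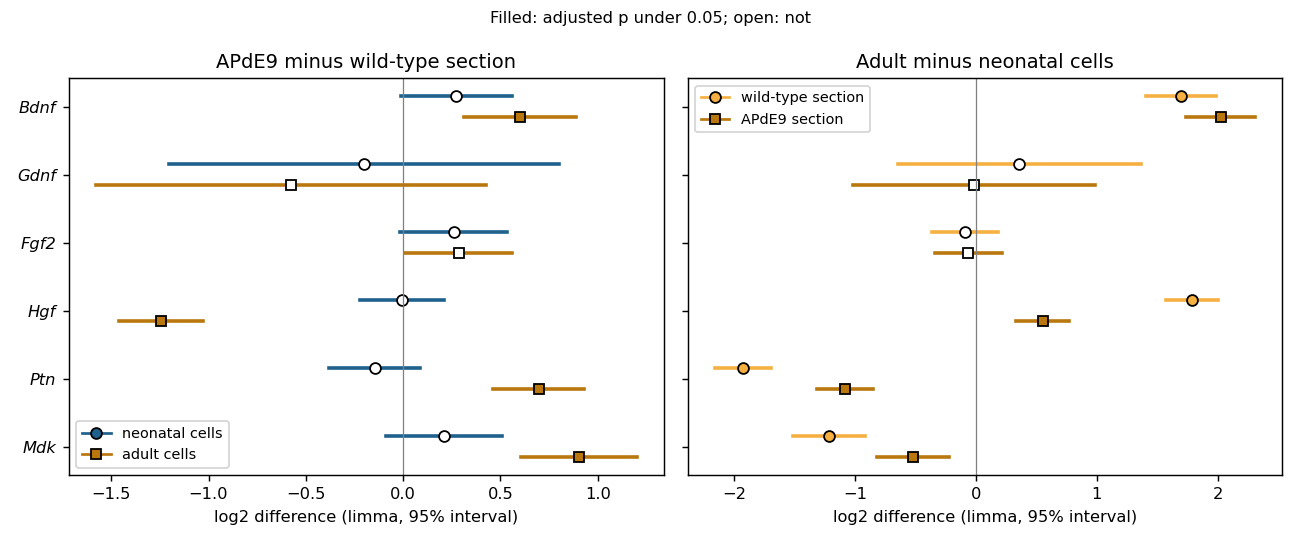
Log2 differences of the 6 genes with 95% intervals from limma, on the left between sections in neonatal and adult cells and on the right between adult and neonatal cells on each section; filled symbols have an adjusted p under 0.05. On the left, in adult cells, the interval for Hgf lies below 0 and those for Bdnf, Ptn and Mdk above it. The adult interval for Fgf2 (0.01 to 0.56) also lies above 0, but its symbol is open, as is every neonatal symbol.

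Ptn, a heparin-binding factor that promotes neurite outgrowth, lies at chr6:36714924-36810179. Its adult values were -0.48, -0.47 and -0.37 on APdE9 and -1.16, -1.13 and -1.12 on wild-type sections. The neonatal values were 0.43, 0.66 and 0.84 on APdE9 and 0.69, 0.71 and 0.97 on wild-type sections. All adult arrays lay below all neonatal arrays, and among adult arrays those on APdE9 were higher without overlap. Ptn was 1.62-fold higher on APdE9 in adult cells (0.70 ± 0.11, adjusted p = 0.000719) and differed by -0.15 ± 0.11 in neonatal cells (adjusted p = 0.650). The section effects differed by 0.84 ± 0.15 (adjusted p = 0.00430), but by 0.50 after quantile normalization, which missed the threshold (adjusted p = 0.0881). Of 11 measured oligodendrocyte lineage markers (12 listed), 6 rose on APdE9 in adult cells, with a median of 0.42, and the list mean per array was 0.05 to 0.18 there against -0.55 to -0.51 on wild-type sections (neonatal cells 0.29 to 0.31 and 0.03 to 0.14). Their part in the Ptn result was not tested. Adult cells had 3.80-fold less Ptn on wild-type (-1.93 ± 0.11, adjusted p = 3.76e-08) and 2.12-fold less on APdE9 sections (-1.08 ± 0.11, adjusted p = 9.20e-06).

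Ptn has 3 probe sets, and they did not agree. Probe sets 1416211_a_at and 1448254_at correlated at 0.99 and were higher on APdE9 in adult cells by 0.84 ± 0.11 and 1.06 ± 0.10, while on wild-type sections they were lower in adult than in neonatal cells by log2 differences of -2.62 and -2.84. The probe set 1443173_at correlated with them at 0.33 and 0.34, had an SD of 0.46 over the arrays against 1.10 and 1.22, and passed no comparison (0.20 between sections in adult cells, adjusted p = 0.766, and -0.32 for age on wild-type). The mean over the 3 probe sets is therefore smaller than the differences the pair gave. For the difference of section effects 1416211_a_at and 1448254_at each gave 1.26 (adjusted p = 0.000522 and 0.000403), and 1443173_at gave 0.0019 (adjusted p = 0.999). The calls of the pair were kept after quantile normalization, whereas that of the gene value was not. In neonatal cells 1416211_a_at was lower on APdE9 without overlap (-0.43 ± 0.11, adjusted p = 0.0746). So was 1448254_at (-0.21 ± 0.10, adjusted p = 0.499), while 1443173_at was higher with overlap (0.20 ± 0.34, adjusted p = 0.943). Replicate numbers paired the arrays in that comparison, and with the number as a block 1416211_a_at passed (adjusted p = 0.0212). It was the sole member probe set called there, beside 2.98% of all probe sets in the fit with the block. Without the block 0 of the 11 were called by limma and 2 had an unadjusted p under 0.05, beside 2.00% of all probe sets called.

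**Figure D3:**
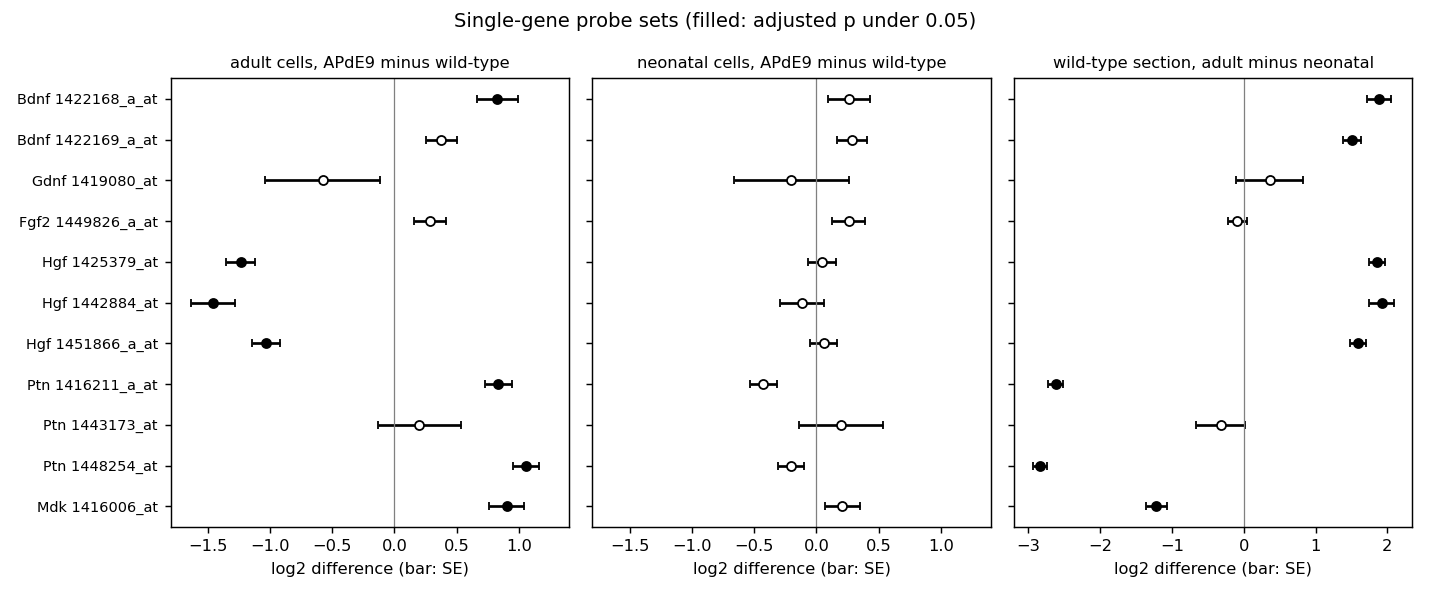
Log2 differences of the 11 probe sets with the SE from limma as bars, between sections in adult cells (left), between sections in neonatal cells (middle) and between adult and neonatal cells on wild-type sections (right, on a wider scale); filled symbols have an adjusted p under 0.05. The 3 Hgf probe sets lie together in each panel, while the Ptn probe set 1443173_at stays near 0 (0.20 and -0.32 in the outer panels) where the other Ptn probe sets are filled.

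Mdk, the relative of pleiotrophin, is a growth and survival factor of the developing nervous system. It lies at chr2:91929805-91932297 and was measured by a single probe set. Its adult values were -0.13, 0.07 and -0.07 on APdE9 and -1.03, -0.92 and -0.89 on wild-type sections. The neonatal values were 0.37, 0.48 and 0.58 on APdE9 and -0.09, 0.33 and 0.56 on wild-type sections. Adult cells on wild-type stood below all other arrays, and the other 3 groups came close together. Mdk was 1.87-fold higher on APdE9 in adult cells (0.90 ± 0.14, adjusted p = 0.000622) and differed by 0.21 ± 0.14 in neonatal cells (adjusted p = 0.582). Adult cells on wild-type had 2.32-fold less than neonatal cells (-1.21 ± 0.14, adjusted p = 2.01e-05). On APdE9 they had 1.43-fold less (-0.52 ± 0.14, adjusted p = 0.0144). That call was lost without neonatal APdE9 replicate 3 (adjusted p = 0.0555) or adult APdE9 replicate 1 (adjusted p = 0.0512). Using arrays numbered 1 and 2 alone ended it too (adjusted p = 0.0699). In the order of means, neonatal cells on APdE9, neonatal cells on wild-type and adult cells on APdE9 did not differ as neighbours.

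The section effects on Mdk differed by 0.69 ± 0.19 between adult and neonatal cells (adjusted p = 0.0405 over genes, but 0.0608 in the fit over probe sets). The call held without neonatal wild-type replicate 1 or without neonatal APdE9 replicate 3. It was lost when any of the other 10 arrays was left out, with adjusted p between 0.0507 and 0.101 and differences of 0.55 to 0.74. Quantile normalization gave 0.40 (adjusted p = 0.235), and the arrays numbered 1 and 2 alone gave 0.64 (adjusted p = 0.117). In the fit over probe sets the Mdk probe set passed with the replicate block (adjusted p = 0.0194) and with array weights (adjusted p = 0.0174), and the gene passed in both of these settings too.

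Over the 12 arrays, Ptn and Mdk correlated at 0.912, and Hgf correlated with them at -0.918 and -0.926. Bdnf correlated with Hgf at 0.633 and with Ptn at -0.847. These values are descriptions over arrays of 4 groups and largely follow the group means. The genes whose values were most like those of a member over the 12 arrays were Slc26a2, Pde3b and Myzap for Bdnf (Pearson r 0.989, 0.988 and 0.985) and Lrrc17, Fggy and Mfap5 for Hgf (0.993, 0.992 and 0.990). For Ptn they were Olig1, Ppp1r9a and Pou3f3 (0.993, 0.992 and 0.990), and for Mdk Zbp1, Psmf1 and Ifi35 (0.981, 0.977 and 0.976). Gdnf came closest to Ndrg1, Bhlhe40 and Rnf103 (0.950, 0.925 and 0.908), and Fgf2 to Wnt1, Neurog3 and Cdh7 (0.900, 0.885 and 0.879).

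Receptors of these factors were read as well, from lists of each family. Of 13 receptor genes 6 were called higher in adult cells on APdE9, beside 8.26% of all genes. In neonatal cells 1 was called lower, beside 3.76% of all genes called in either direction. In adult cells on APdE9, Gfra1, the co-receptor of Gdnf, rose by 1.08 ± 0.10 (adjusted p = 1.39e-05), and its section effect differed from that in neonatal cells by 1.23 ± 0.14 (adjusted p = 0.000219). Ptprz1, the receptor phosphatase of pleiotrophin and midkine, rose by 0.61 ± 0.09 (adjusted p = 0.000600) and the syndecan Sdc3 by 0.34 ± 0.08 (adjusted p = 0.00918). The Ptprz1 rise was 0.37 after quantile normalization (adjusted p = 0.0338), and its difference between the ages, 0.65 ± 0.13 (adjusted p = 0.00788), then missed the threshold (adjusted p = 0.235), as it did with the arrays numbered 1 and 2 alone (adjusted p = 0.0677). Ret gave -0.07, Gfra2 0.01, Alk -0.04 and Ntrk3 0.03, and these as well as Fgfr1, Fgfr2 and Fgfr3 (0.18, -0.15 and -0.19) did not pass.

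Ntrk2, which encodes TrkB, was 0.35 ± 0.09 higher in adult cells on APdE9 (adjusted p = 0.0153). That call was lost without adult wild-type replicate 3 (adjusted p = 0.0637) or adult APdE9 replicate 2 (adjusted p = 0.0602) and after quantile normalization (adjusted p = 0.137) or with the median of its probe sets (adjusted p = 0.238). Met, the receptor of Hgf, gave 0.48 ± 0.14 (adjusted p = 0.0361), and the call was lost without any one of the adult wild-type arrays (adjusted p = 0.0940, 0.0699 and 0.0924 for replicates 1 to 3) and without adult APdE9 replicate 1 or 3 (0.118 and 0.0869), and after quantile normalization (0.0639) or median centring (0.0607). Ngfr, the p75 receptor, gave 0.27 ± 0.07 (adjusted p = 0.0229) and lost its call without any one of the adult arrays other than APdE9 replicate 3 (adjusted p = 0.0616 to 0.0698), after quantile normalization (0.0519) and with the median of probe sets (0.0981). With the arrays numbered 1 and 2 alone the adult calls of Ntrk2, Met, Ngfr and Sdc3 were lost as well (adjusted p = 0.138, 0.137, 0.0909 and 0.145). In neonatal cells Fgfr2 was lower on APdE9 (-0.60 ± 0.13, adjusted p = 0.0226). Leaving out replicate 1 or 2 of the neonatal wild-type group (adjusted p = 0.0629 and 0.104) or neonatal APdE9 replicate 3 (0.0771) ended that call, as did fitting only the arrays compared (0.0885).

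By age on wild-type sections the receptors moved in both directions. Ptprz1 was lower in adult cells by -2.54 ± 0.09 (adjusted p = 8.38e-10), Ntrk2 by -2.02 ± 0.09 (adjusted p = 3.68e-09), Fgfr3 by -1.01 ± 0.10 (adjusted p = 8.71e-06) and Gfra1 by -0.67 ± 0.10 (adjusted p = 0.000210), all as log2 differences. Sdc3 and Fgfr2 were called lower as well. Over the fits without single arrays Sdc3 gave -0.60 to -0.54 (adjusted p at most 0.000904) and Fgfr2 -0.74 to -0.53 (adjusted p at most 0.0134). Met was higher in adult cells by 0.52 ± 0.14 (adjusted p = 0.0157) and Fgfr1 by 0.33 ± 0.09 (adjusted p = 0.0192). Both calls were lost when neonatal wild-type replicate 2 (adjusted p = 0.0657 for Met and 0.0806 for Fgfr1), neonatal wild-type replicate 3 (0.0583 and 0.0704) or adult wild-type replicate 2 (0.0588 and 0.0771) was left out, or when only arrays numbered 1 and 2 were used (0.0856 and 0.119). The Fgfr1 call was also lost with the median of probe sets (adjusted p = 0.0613). On APdE9 sections the adult cells had more Gfra1 than neonatal cells (0.56 ± 0.10, adjusted p = 0.00118) and more Met (0.96 ± 0.14, adjusted p = 0.000301) and Fgfr1 (0.74 ± 0.09, adjusted p = 7.93e-05). Ntrk2 and Ptprz1 were lower there too (-1.46 and -1.89). Fgfr3 is among the astrocyte markers, of which most were lower in adult cells.

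**Figure D4:**
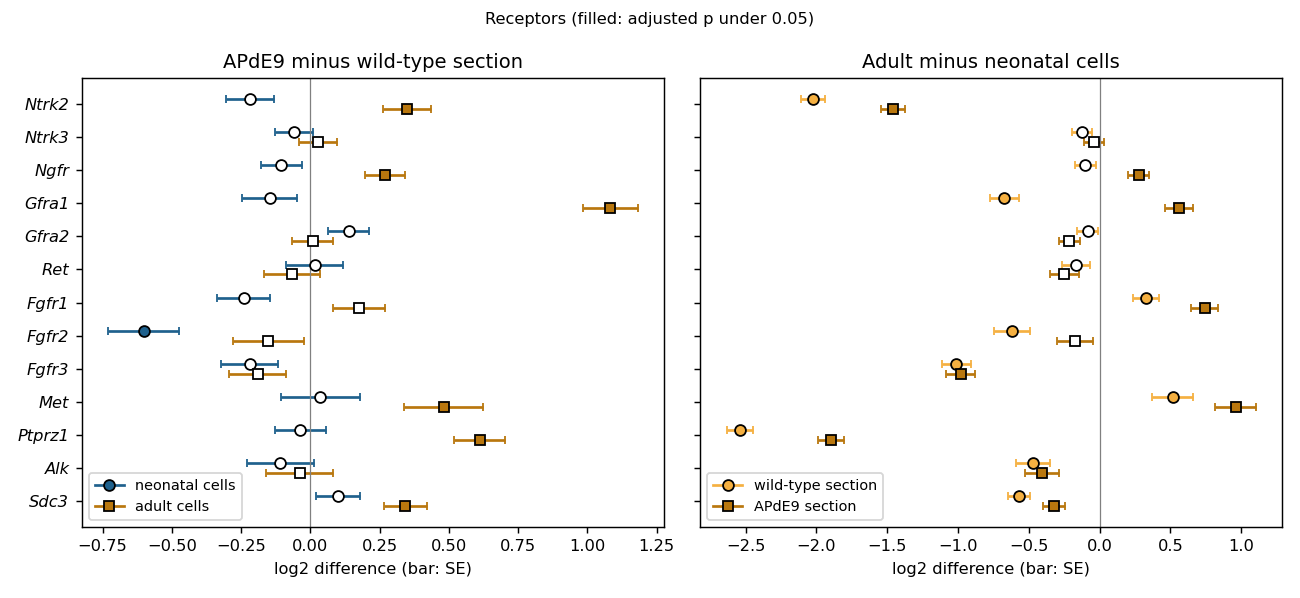
Log2 differences, with the SE from limma as bars, of 13 receptor genes of the factors, between sections (left) and between ages (right, on a wider scale); filled symbols have an adjusted p under 0.05. Gfra1 and Ptprz1 rise on APdE9 in adult cells, and Ptprz1 and Ntrk2 lie far below 0 in the comparison of adult with neonatal cells.

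The family lists give the setting of these values. In adult cells on APdE9, 5 of 14 measured neurotrophin genes rose and 4 fell, beside a list median of 0.05 that equals the 0.05 of all genes. Of 12 GDNF family genes 1 rose and 2 fell, of 29 FGF genes 5 rose and 1 fell, of 15 HGF pathway genes 5 rose and 2 fell, and of 18 pleiotrophin and midkine genes 5 rose and 2 fell, with medians of -0.03, 0.06, 0.18 and 0.03 (genes of these lists include the members). Of 25 other neurotrophic factors 6 rose and 3 fell, with a median of 0.16. Over all genes 8.26% rose and 9.40% fell in this comparison, and the lists were not tested against these shares. The lists thus held genes of both directions. Among the genes that moved most, Sorcs2, a sorting receptor of neurotrophins, fell by 1.23 on the log2 scale (adjusted p = 4.36e-05) and Pcsk6, a proprotein convertase, rose by 0.67 ± 0.09 (adjusted p = 0.000233). Pcsk6 rose by 0.44 after quantile normalization. Ncam1, an adhesion molecule and partner of Gdnf, fell by 1.23 (adjusted p = 1.46e-05), the growth factor Fgf7 fell by 1.33 (adjusted p = 0.000146), and Spint2, an inhibitor of the proteases that activate Hgf, rose by 0.51 ± 0.09 (adjusted p = 0.00164). Itga6, an integrin subunit, rose by 1.21 ± 0.12 (adjusted p = 2.75e-05).

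Among other growth factors, insulin-like factors differed by more than any member. In adult cells on APdE9 Igf1 fell by 2.04 (adjusted p = 7.75e-07), while Igf2 rose by 1.45 ± 0.18 (adjusted p = 0.000125) and Tgfb2 by 1.12 ± 0.09 (adjusted p = 4.83e-06), all on the log2 scale. The Igf1 effect differed from that in neonatal cells by -1.88 ± 0.18 (adjusted p = 6.31e-05) and the Igf2 effect by 1.68 ± 0.25 (adjusted p = 0.00131). In neonatal cells, where 3.76% of all genes were called between sections, the lists held few calls. There 2 neurotrophin genes and 1 GDNF family gene fell, 1 gene rose and 1 fell in each of the FGF and HGF lists, and 1 rose among the pleiotrophin and midkine genes and 1 among the other factors. The HGF gene that rose was Spint1, another inhibitor of Hgf-activating proteases (0.74 ± 0.11, adjusted p = 0.00409). By age on wild-type sections, 2 of the 25 other factors rose and 9 fell in adult cells, with a median of -0.38 beside 0.01 over all genes; Metrn, the neurotrophic protein meteorin, was among those that fell (-1.75 ± 0.10, adjusted p = 6.49e-08). Of the 18 pleiotrophin and midkine genes 3 rose and 7 fell, Cspg5, a proteoglycan, by 1.83 (adjusted p = 7.07e-06). Of the 14 neurotrophin genes 4 rose and 3 fell, and Ntf5, which encodes neurotrophin 4, rose by 1.53 ± 0.21 (adjusted p = 0.000136). Of the 29 FGF genes 4 rose and 8 fell, with Fgf7 at 2.83 ± 0.17 and Fgf13 at 2.23 ± 0.11 among those that rose and Fgf1 at -0.92 ± 0.10 among those that fell. Over all genes 14.9% rose and 15.2% fell by age on wild-type sections.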

How the data were processed

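Per the labels, RNA of 12 astrocyte pools was hybridised to Affymetrix mouse arrays. Per the submitters' processing notes signals were computed with RMA (version not given in the sources used here). In 8 arrays the deposited numbers were read as log2 signals, the usual output of RMA, although the log base is not stated. The deposited columns of the other 4 arrays were recorded as a score because 6 values had an absolute value over 100. These were set to missing, none in a member, and the rest was used as log2. The authors had centred each probe set: its median over 12 arrays was 0 within 1e-06 in all 45095 complete probe sets, so depth over background could not be read and the precision rests on the number of arrays.

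Of 45101 probe sets 64 controls were left out. Of the 45037 tested, 34945 were paired with 1 gene in GEO's platform annotation, 932 with several and 9160 with none. Of the single-gene probe sets 34741 matched RefSeq, which gave symbols and coordinates. Group means were fitted with limma 3.58.1 in R 4.3.3 (with data.table, version 1.17.8). It used 12 arrays, residual degrees of freedom 8 and prior degrees of freedom 3.97 for genes, with Benjamini-Hochberg adjustment and a threshold of 0.05. Figures used matplotlib 3.10.9. On simulated data with 18193 genes, log2 changes of 0.5, 1 and 2 in the adult section comparison were recovered for 43.3%, 88.1% and 100% of changed genes. The simulation drew independent noise for each array and changed only a small part of the genes, whereas 17.7% were called in the data. These percentages are therefore not the power of the test in these data.

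The main fit held no term for the replicate number, so SE, intervals and p-values are unpaired unless a block is named. Numbers were judged to pair the arrays where the deviations of each same-numbered pair correlated over 0.1. This was so for the neonatal section comparison (0.239, 0.183 and 0.477) and age on APdE9 (0.460, 0.266 and 0.503), from the data and not from the labels, and not for section in adult cells (0.287, -0.106 and 0.447) or age on wild-type (0.380, 0.024 and 0.383). Alternatives were a replicate block, other scalings, array weights, robust variances, a filter on SD, other thresholds, the median of probe sets and leaving out each array. Arrays numbered 1 and 2 alone were tried after the data were seen. Members, lists and tests were chosen with earlier results of these data known. From each list at most 5 called genes, largest difference first, and the receptors of the members could be named, and for each member the 3 genes of the highest correlation.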

Additional observations from a re-analysis of the deposited data

Results flagged for a closer look

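For 3 of the 6 genes the section effect differed between adult and neonatal cells by limma's test of that difference. The value, adult minus neonatal, was -1.24 for Hgf (adjusted p = 0.000205), 0.84 for Ptn (adjusted p = 0.00430) and 0.69 for Mdk (adjusted p = 0.0405). On APdE9 sections Hgf fell and Ptn and Mdk rose in adult cells, and none of the 3 passed in neonatal cells. Without single arrays the value ran from -1.32 to -1.17 for Hgf, from 0.74 to 0.94 for Ptn and from 0.55 to 0.87 for Mdk, whose call was lost in 10 of the 12 fits. After quantile normalization it was -1.31 for Hgf (adjusted p = 0.000570), 0.50 for Ptn (adjusted p = 0.0881) and 0.40 for Mdk (adjusted p = 0.235). These are values of genes, and the Ptn probe sets 1416211_a_at and 1448254_at kept their calls for the difference. The part of medium and isolation, which differed between the ages, cannot be told apart from age.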

How the results depend on the processing

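Fits that left out 1 array gave 0 called genes for section in neonatal cells, 4 for section in adult cells, 2 to 3 for their difference, 4 for age on wild-type and 3 to 4 for age on APdE9. For probe sets the counts were 0, 7, 5 to 6, 8 and 6 to 8. After quantile normalization 1 of the 3 genes called for the difference was left, whereas each member probe set called for it stayed called. In neonatal cells 1 member probe set was called with the replicate block, with array weights or at a threshold of 0.1. With the arrays numbered 1 and 2 alone, 5 instead of 8 probe sets were called for age on APdE9. The block changed no call of a member gene. Directions that turned belonged to uncalled values. Without single arrays the Gdnf difference of section effects ran from -0.86 to 0.10, its age effect on wild-type from -0.0073 to 0.84 and on APdE9 from -0.50 to 0.46 (0.11 after quantile normalization, 0.30 with arrays numbered 1 and 2). For Fgf2 the difference of section effects was -0.0676 after quantile normalization, -0.0065 after median centring, -0.0724 with arrays numbered 1 and 2 and -0.0669 to 0.12 without single arrays, and its age effect on APdE9 ran from -0.15 to 0.0281. The neonatal section effect on Hgf was 0.0149 with the median of probe sets and 0.0143 with arrays numbered 1 and 2, and -0.0751 to 0.0565 without single arrays. The cause of these changes was not tested. Levels over background could not be read, which limits all low values.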
